A study of Mus musculus with 47 samples.

Results

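Squamous keratin and cornified envelope genes were followed through the reprogramming of mouse fibroblasts, in 47 messenger RNA libraries of 12 groups. The genes were the 9 rows of the deposited expression table, of 22632 in all, that carry the symbols Krt5, Krt6a, Krt14, Krt15, Krt16, Krt17, Trp63, Ivl and Sprr1a. The clone groups were secondary reprogramming cells, grown from secondary mouse embryonic fibroblasts to which doxycycline was given to start reprogramming. Clones of a class titled SC and clones of a class titled SI (4 each, names that the labels do not spell out) were sampled after 14 days on the drug (d14), 21 days on it (d21), 21 days on and 1 day off (d22), 21 days on and 2 days off (d23), and 27 days on (d27). The SC clones were also sampled as iPS cells after 21 days on and 6 days off, and 3 libraries of feeder mouse embryonic fibroblasts had no doxycycline. Each clone group held 4 libraries, 1 per clone, so each clone is a line of its own and the p-values below measure only the spread between these clones. No source used here gives the mouse strain, the transgenes or the embryos' age.

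Stratified squamous epithelia such as the epidermis rest on a basal layer marked by the keratin pair Krt5 and Krt14 and by the transcription factor Trp63 (p63), and Krt15 marks basal and hair follicle cells. Krt6a, Krt16 and Krt17 are keratins of hair follicles and nails that interfollicular epidermis makes when it is wounded or hyperproliferative. As keratinocytes mature they make Ivl (involucrin) and small proline-rich proteins such as Sprr1a, which transglutaminases cross-link into the cornified envelope. Neither fibroblasts nor pluripotent cells are a squamous cell type.

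The stretches upstream of a basal keratin gene and of both envelope genes are shown, for the members whose window in the table lies at the annotated start. Each is the 250 bases before the annotated start on the minus strand, from RefSeq in build GRCm38.p6, and capitals mark matches to TGANTCA, the core of AP-1 sites, searched on both strands. The windows are chr15:101712906-101713155 for Krt5, chr3:92573736-92573985 for Ivl and chr3:92485882-92486131 for Sprr1a.
Krt5: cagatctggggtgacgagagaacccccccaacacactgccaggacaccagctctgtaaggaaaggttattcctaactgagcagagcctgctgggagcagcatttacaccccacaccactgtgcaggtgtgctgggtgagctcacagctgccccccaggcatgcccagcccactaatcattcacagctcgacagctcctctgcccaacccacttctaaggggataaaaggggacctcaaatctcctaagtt
Ivl: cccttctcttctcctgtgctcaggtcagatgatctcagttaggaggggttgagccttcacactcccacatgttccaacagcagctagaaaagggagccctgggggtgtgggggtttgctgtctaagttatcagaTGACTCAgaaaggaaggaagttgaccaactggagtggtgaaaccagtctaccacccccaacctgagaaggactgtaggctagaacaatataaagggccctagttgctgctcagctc
Sprr1a: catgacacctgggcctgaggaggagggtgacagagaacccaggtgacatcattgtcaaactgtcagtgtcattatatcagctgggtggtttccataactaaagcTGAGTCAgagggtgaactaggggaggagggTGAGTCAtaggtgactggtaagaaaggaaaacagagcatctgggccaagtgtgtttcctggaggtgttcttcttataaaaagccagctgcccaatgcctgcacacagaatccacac
The Ivl window held 1 match, starting 116 bases before the start, and the Sprr1a window held 2, at 146 and 116 bases. The Krt5 window held 0. Of 32851 mouse windows of the same length, 6.75% held at least 1 match and 0.338% held 2 or more. TATAAA, the letters of a TATA box, stood 29 bases before the start in Ivl and 43 in Sprr1a, and 12.4% of windows held it. The table's window for Krt14 starts 1518 bases inside the gene as GENCODE M21 draws it, so it is not shown, and it held 0 matches of either kind. These are matches of letters and say nothing of binding or of expression.

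Values are RPKM, read counts scaled to gene length and to library size, so levels of different genes can be set side by side. Between 10909 and 11931 genes reached 1 RPKM in a library, and the steps between low values placed 40 of the 47 libraries at 32.2 to 122.8 megareads, up to a whole multiple. At that depth 1 read in a gene of 1 kb is worth 0.00814 to 0.0311 RPKM. The libraries carried the genes of their labels, with 10 pluripotency genes summing to 963.14 to 1622.36 RPKM in iPS cells and 0.27 to 1.21 RPKM in feeders, and 12 fibroblast genes to 8185.67 to 8765.52 RPKM in feeders. A pair of clones stood apart from their groups. At d23 the clone SC2 had a pluripotency sum of 324.04 RPKM, against 1118.69 to 1779.72 RPKM in the other SC clones, and a fibroblast sum of 5215.04 RPKM, against 941.42 to 2648.33. The clone SI3 at d23 had 8 simple epithelial genes (such as Krt8, Krt18 and Cdh1) summing to 121.59 RPKM, and its fibroblast sum was 10396.3 RPKM, the highest of its group. Several results below are also given without SC2 or SI3.

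Of the 6 keratins, Krt6a, Krt14, Krt16 and Krt17 were near absent in feeders and abundant in clones of both classes by d14. Krt5 was at 0.9 to 6.94 RPKM in clones at d14, and Krt15 stayed at or under 0.25 RPKM. In SC clones at d14, 6 of 7 members tested were higher than in feeders, where 40.8% of all genes tested were called higher. All of the 6 but Ivl entered the test through the clones alone, so their direction was fixed in advance. This count is therefore no evidence of its own against the share of all genes. Krt6a stood at 72.66, 107.14, 130.41 and 76.46 RPKM in SC clones at d14, against 0.04, 0.00 and 0.01 RPKM in feeders. Krt17 stood at 85.89 to 296.40 RPKM in the same SC libraries, against 0.04 to 0.10 RPKM in feeders. Krt14 stood at 33.38, 30.71, 33.85 and 53.08 RPKM, against 0.06, 0.07 and 0.03 RPKM. No SC library at d14 overlapped the feeders for these keratins. In bulk RNA fewer cells of a type and less RNA per cell cannot be told apart. On the log2(RPKM + 1) scale used for every test below, which understates the change of low genes, SC clones exceeded feeders by 7.10 ± 0.37 for Krt17, 6.54 ± 0.19 for Krt6a, 5.19 ± 0.11 for Krt16, 5.17 ± 0.17 for Krt14 and 2.17 ± 0.30 for Krt5 (± standard error). Adjusted p in limma ran from 7.88e-08 for Krt16 to 0.000542 for Krt5.

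In SI clones at d14 the same 5 keratins, of 7 members tested, were higher than in feeders, where 32.1% of all genes tested were called higher. These keratins too entered through the clones alone, so their direction was fixed in advance and the count is no evidence of its own. They had log2 differences of 6.00 ± 0.72 for Krt6a (limma adjusted p = 0.006), 5.36 ± 0.49 for Krt17, 4.59 ± 0.78 for Krt16, 4.41 ± 0.95 for Krt14 and 1.96 ± 0.41 for Krt5. The SI clones varied more. Krt14 stood at 3.76, 11.04, 87.91 and 47.85 RPKM, low in SI1 and SI2 and high in SI3 and SI4. Krt16 followed the same order, at 5.67, 16.09, 71.27 and 49.72 RPKM. Without feeder replicate 1, 2 or 3 the calls of Krt14 (adjusted p = 0.0717 to 0.0797), Krt16 (0.0627 to 0.0719) and Krt5 (0.0701 to 0.0791) in SI clones were lost, with their differences at 4.39 to 4.42, 4.58 to 4.59 and 1.96.

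The envelope genes behaved otherwise, since feeders themselves carried them. Ivl stood at 2.14, 3.35, 2.23 and 2.49 RPKM in SC clones at d14, against 1.81, 1.85 and 1.43 RPKM in feeders, a log2 difference of 0.39 ± 0.13 (limma adjusted p = 0.0256). That call was lost without feeder replicate 1 (0.0538) or 3 (0.107) with median-ratio scaling (0.0973) and in 1 fit over all 12 groups (0.205). Sprr1a stood at 2.41, 2.60, 2.62 and 3.30 RPKM in SC clones, against 1.88, 2.47 and 1.87 RPKM in feeders, which overlapped (log2 difference 0.28 ± 0.11, adjusted p = 0.0516). It passed at 0.0476 without SC clone 1 at 0.0333 without feeder replicate 2 and at 0.0468 with a pseudocount of 0.1. In SI clones neither envelope gene differed from feeders beyond the spread, with log2 differences of -0.12 for Ivl (adjusted p = 0.743) and 0.05 for Sprr1a (0.912). Both comparisons share the feeders. Of 12 fibroblast genes, 8 were called lower in SC clones at d14 (2946 of 11815 genes over all) and 2 in SI clones (1413 of 11751 genes). To be tested a gene had to reach 1 RPKM in a number of libraries no smaller than the smaller group, so Krt15 and Trp63, which stayed low, entered none of them, and a member that entered through its high group alone was bound to differ.

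**Figure D1:**
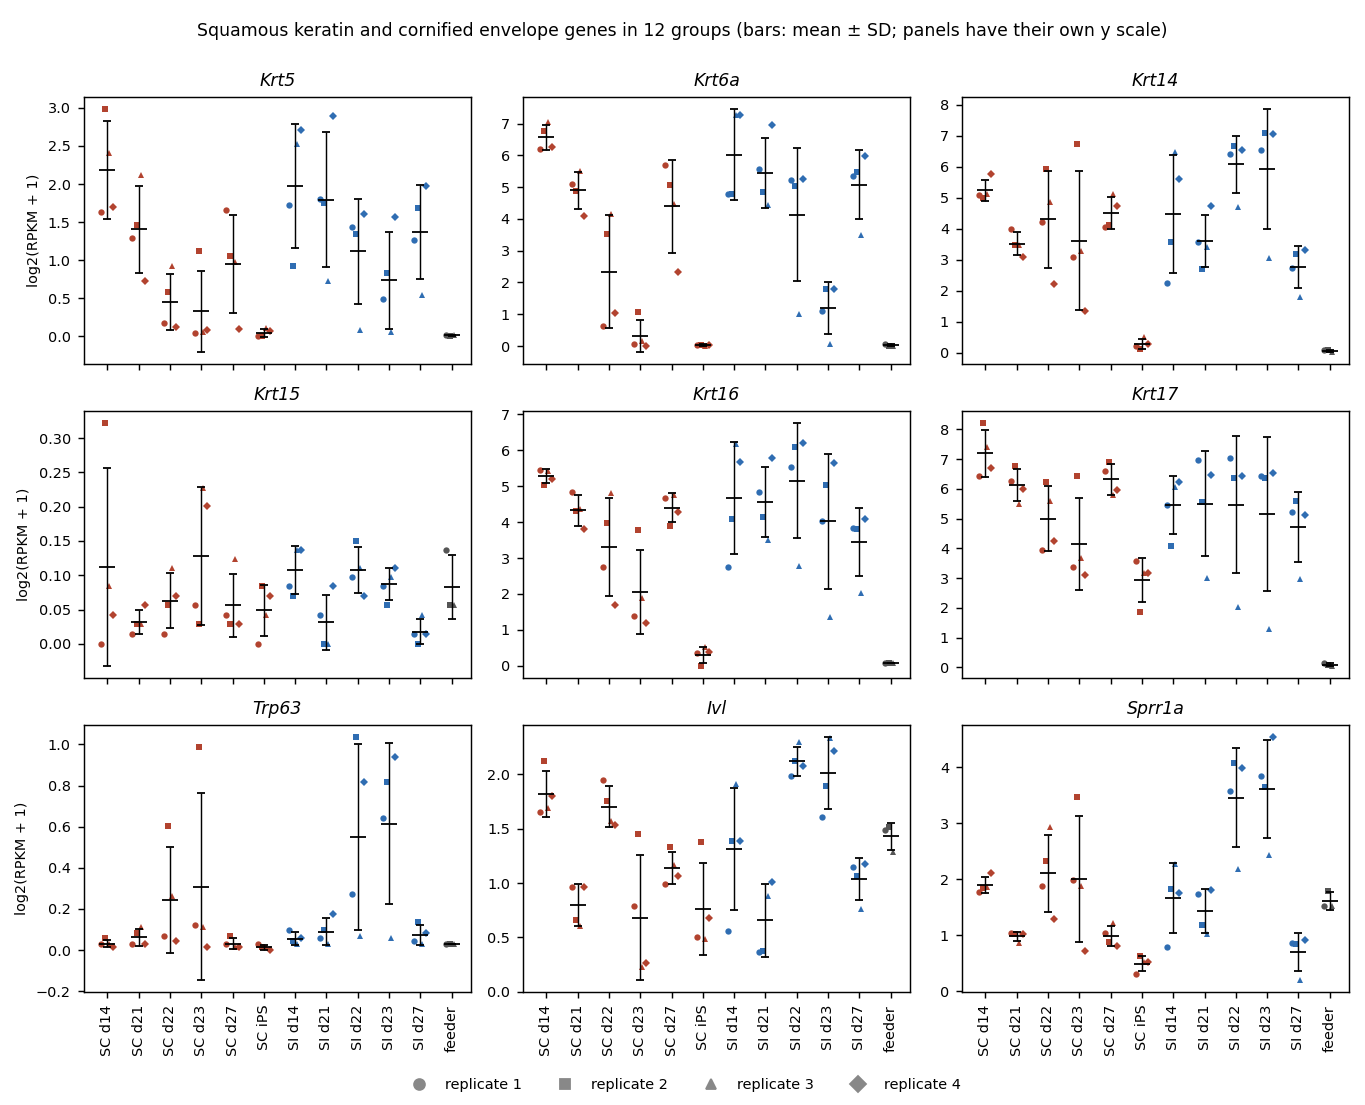
Expression of the 9 genes on the log2(RPKM + 1) scale (y axis, separate for each panel) in the 12 groups (x axis: SC clones in red, SI clones in blue, feeders in grey). Marker shapes are replicates 1 to 4, which are the clones, and bars give mean ± SD. Krt6a falls toward 0 at d23 in both classes while Krt14, Ivl and Sprr1a stand highest at d22 or d23 in SI clones, and Krt15 stays at or under 0.25 RPKM throughout.

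Between d14 and d21, with the drug still present, 5 of 7 members tested fell in SC clones, where 20.6% of all genes tested were called lower. Among the 5, Ivl was under 1 RPKM in every d21 library, so it entered through d14 alone and its direction was largely set by the filter. Krt6a stood at 33.54, 28.33, 44.39 and 16.17 RPKM at d21, each clone under its d14 value, a log2 difference of -1.67 ± 0.30 (limma adjusted p = 0.0023). Krt14 stood at 14.95, 10.26, 10.28 and 7.49 RPKM at d21, with no overlap with d14 (log2 -1.73 ± 0.22, adjusted p = 0.000566). Krt16 fell by 0.94, Ivl by 1.02 and Sprr1a by 0.91 on the log2 scale. Krt17 differed by -1.07 (adjusted p = 0.0531) and Krt5 by -0.78 (0.103), and both passed with the clone as a block (0.0189 and 0.0242), which made it 7 of 7 against 21.3% of genes. In 1 fit over all 12 groups the calls of Krt6a (0.0827), Krt14 (0.0903), Krt16 (0.311) and Sprr1a (0.0642) were lost and that of Ivl held. Without SC2, Krt17 passed at 0.027 with a difference of -0.94, and it passed at 0.0487 with median-ratio scaling. Fibroblast genes moved the same way, with 10 of 12 lower at d21 and a summed level of 1303.99 to 1607.82 RPKM at d21, against 2907.51 to 5619.82 RPKM at d14. Their part in these results was not tested.

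In SI clones none of 7 members passed between d14 and d21, and 0% of all genes tested were called by limma, with 2313 genes and 0 members at an unadjusted p under 0.05. Krt6a stood at 46.71, 27.80, 20.70 and 122.17 RPKM at d21, against 26.29, 26.45, 154.24 and 153.46 RPKM at d14. SI1 was higher at d21, and SI3 and SI4 were lower. Krt5 stood at 2.49, 2.35, 0.65 and 6.46 RPKM at d21, against 2.31, 0.90, 4.77 and 5.52 RPKM at d14.

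Withdrawal of doxycycline split the members. Krt6a fell in both classes, while Krt14, Ivl and Sprr1a rose in SI clones. At d22 Ivl and Sprr1a were also above d21 in 4 of 4 SC clones. The d22, d23 and d27 comparisons with d21 share the d21 libraries. Krt6a, the wound-induced keratin, stood at 0.05, 1.08, 0.11 and 0.00 RPKM in SC clones at d23, against 33.54, 28.33, 44.39 and 16.17 RPKM at d21. The groups did not overlap, and the highest d23 value was that of SC2. The log2 difference was -4.58 ± 0.34 (limma adjusted p = 0.00111), and Krt6a fell by 3.82 to 5.35 within the 4 clones. The call was lost without SC1 (-4.42, 0.0668) or SC3 (-4.32, 0.0505) and held without SC2 (-4.83, 0.00395). In SI clones Krt6a stood at 1.14, 2.47, 0.05 and 2.49 RPKM at d23, against 46.71, 27.80, 20.70 and 122.17 RPKM at d21. That was a log2 difference of -4.26 ± 0.57 (adjusted p = 0.000498), lower in 4 of 4 clones and past the threshold with any clone left out.

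The fall of Krt6a was not complete after 1 day off. At d22 Krt6a stood at 0.55, 10.58, 16.94 and 1.05 RPKM in SC clones, where SC1 and SC4 had nearly lost it and SC2 and SC3 had not. The log2 difference from d21 was -2.56 ± 0.79 (limma adjusted p = 0.0814, 0.013 with the clone as a block, and 0.0255 in 1 fit over all 12 groups). In SI clones it stood at 36.34, 32.12, 1.01 and 37.59 RPKM at d22, low in SI3 and near its d21 level in SI2 (log2 -1.31 ± 0.98, adjusted p = 0.308, and -0.61, 0.276, without SI3). Krt6a and Krt6b are near-identical copies between which the authors' counting could have split reads, and Krt14, Krt16 and Krt17 are close enough in sequence for the same doubt. Krt6b had a mean of 0.0175 RPKM at d23 in SC clones, against 21.3 RPKM at d21, and 0.0575 RPKM at d23 in SI clones, against 42.8 RPKM at d21. Its log2 differences were -4.09 ± 0.55 (adjusted p = 0.00777) and -5.08 ± 0.48 (0.000132), so both copies fell.

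**Figure D2:**
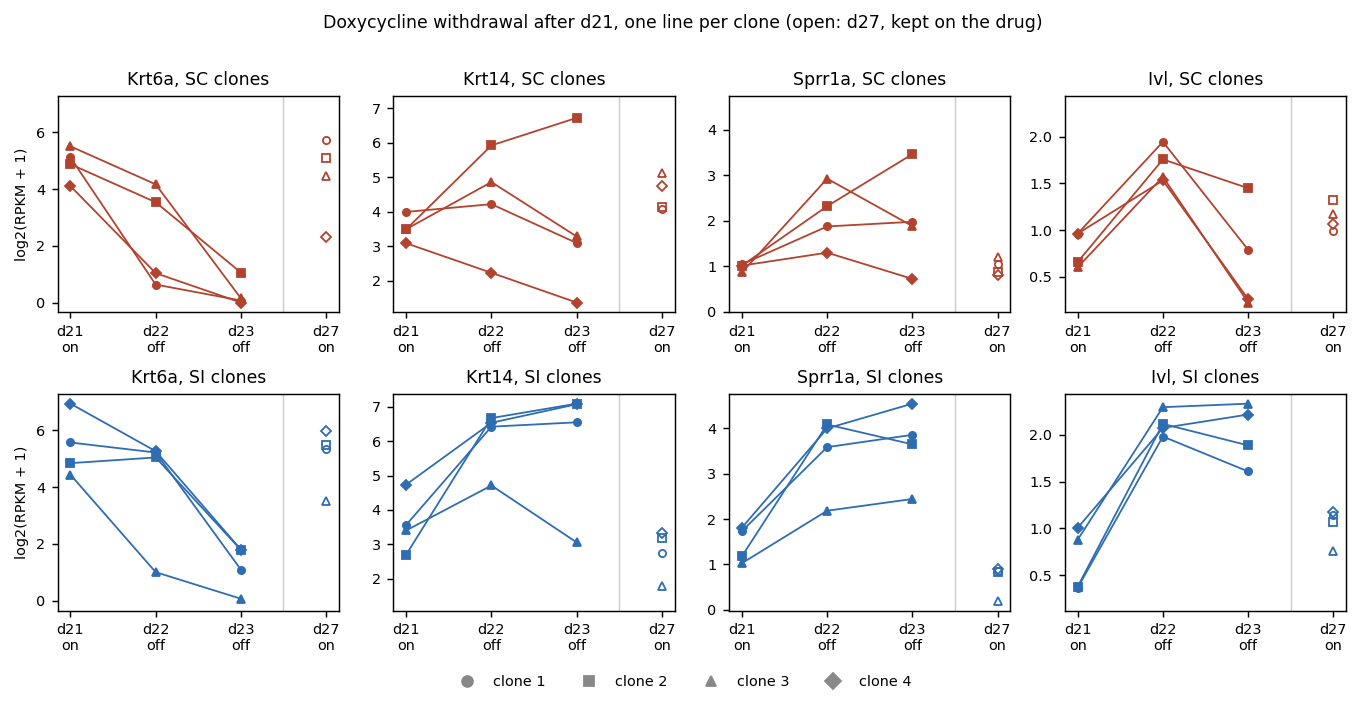
Krt6a, Krt14, Sprr1a and Ivl on the log2(RPKM + 1) scale (y axis, shared by the panels of a gene) in each clone at d21 on the drug, d22 and d23 off it (x axis, filled markers joined by lines), and in the d27 libraries kept on the drug (open markers), with SC clones above and SI clones below. By d23 Krt6a is lower in all 8 clones, and Krt14 is above d21 in 3 of 4 SI clones and, among SC clones, in SC2.

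Krt14, the basal keratin, went the other way in SI clones. It stood at 84.43, 100.59, 25.18 and 91.44 RPKM at d22, against 10.87, 5.53, 9.61 and 25.70 RPKM at d21, a log2 difference of 2.48 ± 0.52 (limma adjusted p = 0.00753) with 4 of 4 clones higher. At d23 it stood at 92.25, 134.71, 7.35 and 133.12 RPKM, where SI3 alone had returned to its d21 level. The d23 difference was 2.33 ± 0.87 (adjusted p = 0.0477) and rested on few clones. It was 3.23 without SI3 (0.000263), and the call was lost without SI1 (2.12, 0.168), SI2 (1.65, 0.249) or SI4 (2.34, 0.104), and with a pseudocount of 0.1 (0.0517) or no filter (0.0761). The d22 call was lost without SI1 (2.35, 0.0536) or SI2 (1.98, 0.0663).

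In SC clones Krt14 stood at 7.54, 104.68, 8.74 and 1.58 RPKM at d23, against 14.95, 10.26, 10.28 and 7.49 RPKM at d21. SC2 was the only clone above its d21 value, and the log2 difference of 0.10 ± 0.95 (limma adjusted p = 0.969) was -0.94 without it. At d22 the same clones had 17.65, 59.74, 28.08 and 3.69 RPKM (log2 0.79 ± 0.68, adjusted p = 0.51, and 0.25 without SC2, 0.865).

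Of the envelope genes, Sprr1a stood at 13.45, 11.50, 4.43 and 22.25 RPKM in SI clones at d23, against 2.33, 1.27, 1.04 and 2.51 RPKM at d21. The log2 difference was 2.18 ± 0.40 (limma adjusted p = 0.00221), with no overlap. At d22 it already stood at 10.98, 15.92, 3.54 and 14.94 RPKM (log2 2.02 ± 0.41, adjusted p = 0.00628, and 0.0612 without SI2 at 1.73). Ivl stood at 2.05, 2.70, 4.04 and 3.65 RPKM at d23, against 0.29, 0.30, 0.84 and 1.01 RPKM at d21 (log2 1.35 ± 0.21, adjusted p = 0.000977). At d22 Ivl stood at 2.95, 3.34, 3.91 and 3.21 RPKM (log2 1.46 ± 0.17, adjusted p = 0.00087). Both envelope genes were higher in 4 of 4 SI clones on either day. Unlike Krt14, Ivl was highest in SI3.

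Fibroblast and leukocyte genes rose beside them. The 12 fibroblast genes summed to 5945.84 to 10396.3 RPKM in SI clones at d23, against 1316.06 to 3376.99 RPKM at d21 and 8185.67 to 8765.52 RPKM in feeders, and 10 of 12 rose. The 7 leukocyte genes summed to 172.97 to 330.83 RPKM at d23, against 54.10 to 122.45 RPKM at d21, and 5 of 6 tested rose. Neither list held a gene at 0 in all libraries of these groups. Feeders carried 1.43 to 1.85 RPKM of Ivl and 1.87 to 2.47 RPKM of Sprr1a, under every SI library at d22 and d23, and at most 0.07 RPKM of Krt14. The part of these cell types in the rise of Ivl and Sprr1a was not tested.

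Krt5, the partner of Krt14, did not rise with it. It stood at 0.40, 0.78, 0.04 and 1.96 RPKM in SI clones at d23, against 2.49, 2.35, 0.65 and 6.46 RPKM at d21. Within the 4 clones it fell by 0.67 to 1.33 on the log2 scale (mean -1.06 ± 0.46, limma adjusted p = 0.0782, 0.00104 with the clone as a block, and 0.0279 in 1 fit over all 12 groups). At d22 the difference was -0.68 (adjusted p = 0.279, and 0.0165 with the block). Without SI3 the d23 difference was -1.19 with an adjusted p of 0.0166.

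In SC clones Ivl rose at d22. It stood at 2.85, 2.38, 1.97 and 1.89 RPKM at d22, against 0.95, 0.58, 0.52 and 0.95 RPKM at d21, with no overlap (log2 0.90 ± 0.14, limma adjusted p = 0.0161). The call was lost without SC1 (0.88, 0.133), SC2 (0.84, 0.0826) or SC3 (0.88, 0.152). All d21 values were under 1 RPKM, so Ivl entered through d22 alone and its direction was largely set by the filter. At d23 Ivl stood at 0.73, 1.73, 0.17 and 0.20 RPKM and did not reach the level for testing. Sprr1a stood at 2.67, 4.00, 6.61 and 1.46 RPKM at d22, against 1.06, 1.02, 0.82 and 1.02 RPKM at d21 (log2 1.12 ± 0.30, adjusted p = 0.0575, and 0.0204 with the clone as a block). It passed at 0.022 without SC4, with a difference of 1.40. At d23 it stood at 2.94, 10.06, 2.69 and 0.65 RPKM, highest in SC2 and lowest in SC4 (log2 1.03 ± 0.48, adjusted p = 0.289, and 0.55 without SC2, 0.371).

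Krt16 and Krt17 did not pass at d23 in either class when d23 and d21 alone were fitted without a block. Krt16, the usual partner of Krt6a, stood at 1.59, 12.66, 2.70 and 1.29 RPKM in SC clones at d23, against 27.79, 18.74, 19.62 and 12.95 RPKM at d21. The groups did not overlap (log2 -2.27 ± 0.53, limma adjusted p = 0.0536, 0.0289 with the clone as a block, and 0.0319 in 1 fit over all 12 groups), and without SC2 the difference was -2.85 (0.0112). Krt17 stood at 9.26, 85.65, 11.73 and 7.69 RPKM at d23, against 75.89, 107.86, 43.79 and 62.37 RPKM at d21, with SC2 in the d21 range. Its log2 difference was -1.98 ± 0.69 (adjusted p = 0.157, and 0.0382 with the block), or -2.53 (0.00981) without SC2.

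In SI clones at d23 Krt17 stood at 85.22, 81.40, 1.42 and 91.41 RPKM, against 125.74, 46.00, 6.98 and 87.49 RPKM at d21 (log2 -0.35 ± 1.29, limma adjusted p = 0.832). Krt16 stood at 15.46, 31.76, 1.58 and 48.80 RPKM, against 27.62, 16.57, 10.33 and 54.09 RPKM (log2 -0.54 ± 0.88, adjusted p = 0.618). Without SI3 the differences were 0.11 for Krt17 (0.776) and -0.015 for Krt16 (0.98). SI3 was lowest in each group for both. At d22 Krt16 differed by 0.59 (adjusted p = 0.565), and by 1.03 without SI3 (0.0485).

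The transcription factor Trp63 stayed low. In SI clones it stood at 0.56, 0.76, 0.04 and 0.92 RPKM at d23, against 0.04, 0.07, 0.02 and 0.13 RPKM at d21, and SI3 stayed at 0.04 RPKM. In the fit with no filter on low values the log2 difference was 0.52 ± 0.17 (limma adjusted p = 0.0433), and at d22 it was 0.46 ± 0.20 (0.121). In SC clones SC2 had 0.98 RPKM at d23 and the other clones 0.01 to 0.09 RPKM. The highest value in any library was 1.05 RPKM, in SI2 at d22, and feeders had 0.02 RPKM. Krt15 reached at most 0.25 RPKM in any library and 0 libraries reached 1 RPKM.

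Counted over the members tested, 4 of 7 differed at d23 from d21 in SI clones (3 higher, 1 lower), where 54.6% of all genes tested were called. With the clone as a block it was 5 of 7, against 63.4%. Without SI3 it was 5 of 7, where 8021 of 12111 genes tested were called. In SC clones 1 of 6 was lower, where 2.81% of all genes tested were called lower, and with the block 3 of 6, against 8.84%. Without SC2 it was 3 of 5, where 269 of 12002 genes tested were called lower. The 1 member called with all SC libraries, Krt6a, entered through d21, so its direction was largely set by the filter. At d22, 3 of 7 were higher in SI clones, where 19.1% of all genes tested were called higher, and 1 of 6 in SC clones, where 3.42% were. The 1 SC member was Ivl, which entered through d22 alone, so its direction was largely set by the filter. In SI clones Ivl was among the members called higher on both days, and at d21 only SI4 reached 1 RPKM of it. With the block the d22 counts were 4 of 7 (57.2% of genes called in either direction) and 3 of 6 (37.3%).

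The d27 clones, kept on the drug throughout, serve as the counterpart of withdrawal. At d27 Krt6a stood at 51.47, 32.72, 21.10 and 3.99 RPKM in SC clones and at 39.70, 43.47, 10.39 and 62.85 RPKM in SI clones, which overlapped d21 in both classes. No member passed in limma between d27 and d21 in either class, where 0.00847% of all genes tested were called in SC clones (1363 genes and 1 member at an unadjusted p under 0.05) and 0% in SI clones (3566 genes and 1 member). With SI3 left out, 5403 of 11757 genes were called and 4 of 7 members passed in SI clones, which were Krt16 (-1.01, adjusted p = 0.0456), Krt17 (-1.03, 0.0313), Sprr1a (-0.71, 0.00895) and Ivl (0.54, 0.0319). Krt14 at d27 stood at 15.78, 16.55, 33.77 and 25.82 RPKM in SC clones, all above d21 (log2 1.00 ± 0.28, adjusted p = 0.31). Sprr1a at d27 stood at 0.81, 0.79, 0.15 and 0.88 RPKM in SI clones, all under d21 (log2 -0.74 ± 0.23, adjusted p = 0.0932), where the d23 libraries were above it.

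**Figure D3:**
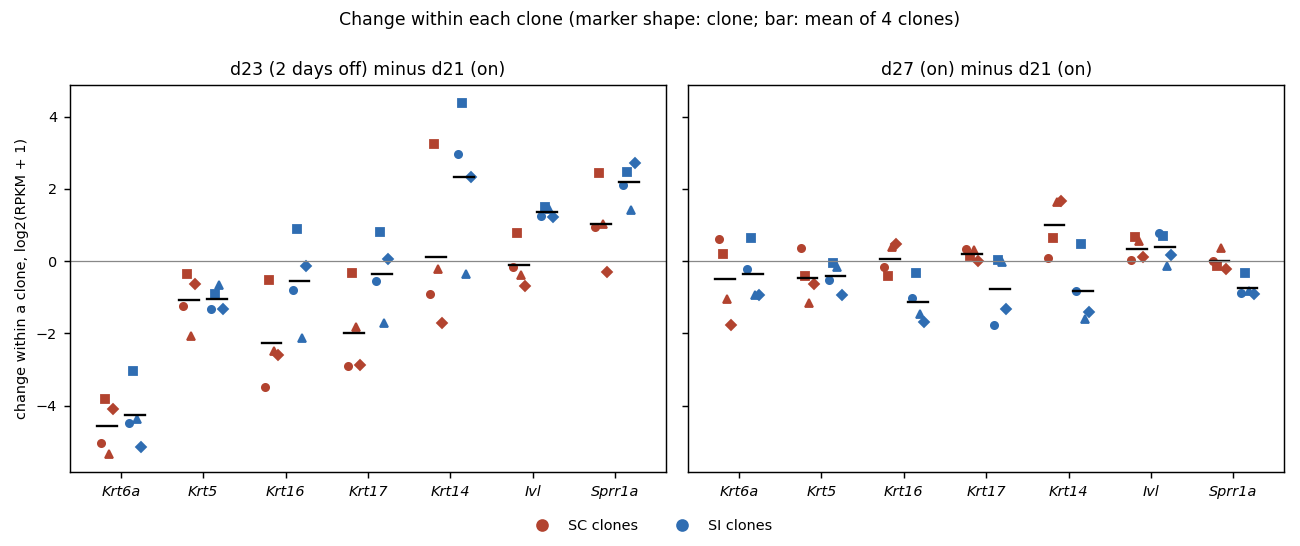
Change within each clone on the log2(RPKM + 1) scale (y axis) for 7 members (x axis), from d21 to d23 off the drug (left) and from d21 to d27 on it (right), SC clones in red and SI clones in blue. Marker shapes are clones and bars are means of 4 clones. Off the drug Krt6a fell by 3.05 to 5.35 in the 8 clones and Sprr1a rose in 7 of them, whereas on the drug changes lay between -1.78 and 1.66.

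The ratio between members changed within a library. The difference between Krt14 and Krt6a on the log2(RPKM + 1) scale was -1.38 ± 0.45 in SC clones at d21, 1.97 ± 1.29 at d22 and 3.30 ± 1.77 at d23 (mean ± SD, n = 4 each). In SI clones it was -1.85 ± 0.55 at d21, 1.94 ± 1.19 at d22 and 4.75 ± 1.17 at d23. At d27 it was 0.12 ± 1.81 in SC clones and -2.32 ± 0.44 in SI clones. Each clone at d22 and d23 had more Krt14 than Krt6a on this scale, and each at d21 had less.

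The classes were then set against each other. At d21 no member of 6 tested differed between SC and SI clones in limma, where 0% of all genes tested were called (1572 genes and 1 member at an unadjusted p under 0.05). At d23 Ivl was lower in SC clones, at 0.73, 1.73, 0.17 and 0.20 RPKM, against 2.05, 2.70, 4.04 and 3.65 RPKM in SI clones (log2 -1.33 ± 0.29, adjusted p = 0.0227). It was the 1 member of 6 called, where 19.5% of all genes tested were called lower. Ivl reached 1 RPKM in every SI library but, of the SC libraries, only in SC2, so the filter favoured this direction. Leaving out SC1 (0.0634), SC3 (0.08), SC4 (0.0642), SI2 (0.0618), SI3 (0.0532) or SI4 (0.0515) lost that call. Sprr1a differed by -1.61 (adjusted p = 0.0573), Krt14 by -2.32 (0.146) and Krt16 by -1.96 (0.11). In 1 fit over all 12 groups all 3 passed, at 0.00105 for Sprr1a, 0.0162 for Krt14 and 0.0235 for Krt16, and Sprr1a passed at 0.048 with median-ratio scaling. Without SC2, 5 members were lower in SC clones, namely Krt14 (-3.36, 0.0191), Sprr1a (-2.09, 0.0073), Krt16 (-2.53, 0.0384), Ivl (-1.58, 0.000705) and Krt6a (-1.12, 0.0376), and 7978 genes were called in place of 5021. In that fit Ivl and Krt6a entered through SI clones alone, so their direction was fixed in advance. Without SI3 it was 0 members and 3 genes. Fibroblast genes differed the same way, with 9 of 12 lower in SC clones and a sum of 941.42 to 5215.04 RPKM, against 5945.84 to 10396.3 RPKM in SI clones, and their part in the result was not tested.

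At d27 no member of 6 differed between the classes in limma, where 0.634% of all genes tested were called (2661 genes and 2 members at an unadjusted p under 0.05). Krt14 was higher in each SC clone (15.78 to 33.77 RPKM) than in any SI clone (2.50 to 9.08 RPKM), with a log2 difference of 1.75 ± 0.37 (adjusted p = 0.0712). It passed without SC2 (1.88, 0.0214). The difference between the classes in their d23 against d21 change was tested as an interaction. None of 7 members passed in limma and 0% of all genes tested did (3237 genes and 1 member at an unadjusted p under 0.05). With the clone as a block Ivl passed at -1.47 ± 0.29 (adjusted p = 0.0327, against 0.123 without it, and 0.0102 in 1 fit over all 12 groups), where 23.2% of genes did. Ivl also passed without SC2, at -1.77 (0.00363).

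In iPS cells 4 of 5 members tested were lower than in the same clones at d27, all of them keratins, where 1.2% of all genes tested were called lower. Of these, Krt6a, Krt14 and Krt16 entered the test through d27 alone, so their direction was fixed in advance. The count is therefore no evidence of its own against the share of all genes. Krt14 stood at 0.16, 0.10, 0.44 and 0.23 RPKM in iPS cells, against 15.78, 16.55, 33.77 and 25.82 RPKM at d27, and the log2 difference was -4.22 ± 0.23 (limma adjusted p = 0.000147). Krt16 stood at 0.27, 0.00, 0.44 and 0.30 RPKM, against 24.55, 13.76, 26.20 and 18.35 RPKM (log2 -4.09 ± 0.21, adjusted p = 0.000137). Krt6a stood at 0.03, 0.02, 0.00 and 0.03 RPKM, against 51.47, 32.72, 21.10 and 3.99 RPKM (log2 -4.37 ± 0.61, adjusted p = 0.0222). Without SC1 (-3.93, 0.254) or SC3 (-4.33, 0.219) the Krt6a call was lost.

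Krt17 fell less far. It stood at 10.92, 2.61, 8.02 and 7.94 RPKM in iPS cells, against 95.95, 119.03, 54.85 and 62.01 RPKM at d27 (log2 -3.38 ± 0.38, limma adjusted p = 0.00999, lost without SC1 at -3.50 and 0.129 or SC3 at -3.63 and 0.082). The member that did not pass was Ivl (log2 -0.38 ± 0.20, adjusted p = 0.241). Ivl stood at 0.42, 1.60, 0.40 and 0.60 RPKM in iPS cells. Krt5 stood at 0 to 0.08 RPKM in iPS cells, against 0.07 to 2.16 RPKM at d27. Fibroblast genes summed to 779.17 to 1902.3 RPKM in iPS cells, against 1160.91 to 1382.08 RPKM at d27, and none of 12 passed. The highest iPS value was that of SC2, whose pluripotency sum of 963.14 RPKM was the lowest of the iPS libraries, and the other 3 iPS libraries (up to 893.96 RPKM) lay under every d27 library.

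Against the same clones at d23, iPS cells showed no member past the threshold of 3 tested in limma, where 1.4% of all genes tested were called (2581 genes and 2 members at an unadjusted p under 0.05). The log2 differences were -3.32 ± 0.93 for Krt14 (adjusted p = 0.0919, 0.0451 with the clone as a block, where 8.76% of genes were called lower, and 0.00816 in 1 fit over all 12 groups), -1.74 ± 0.50 for Krt16 (0.0982) and -1.21 ± 0.71 for Krt17 (0.354). Without SC2, Krt14 passed at -2.24 (0.0366) and Krt16 at -1.07 (0.0264), and Krt17 was at -0.08 (0.794). In fits of the d23 and iPS libraries only, Krt14 and Krt16 entered through d23 alone, so their direction was fixed in advance.

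Against feeders, 1 of 3 members tested was higher in iPS cells and 2 were lower, where 79.9% of all genes tested were called. Krt17 entered the test through iPS cells alone and Sprr1a through feeders alone, so their directions were fixed in advance. Ivl reached 1 RPKM in every feeder library and, of the iPS libraries, only in SC2. The count is thus no evidence of its own against the share of all genes. Krt17 was higher, at 2.61 to 10.92 RPKM, against 0.04 to 0.10 RPKM in feeders (log2 2.85 ± 0.35, limma adjusted p = 8.89e-05). Sprr1a was lower, at 0.24, 0.54, 0.43 and 0.43 RPKM, against 1.88, 2.47 and 1.87 RPKM (log2 -1.12 ± 0.11, adjusted p = 2.87e-05). Ivl was lower as well (log2 -0.67 ± 0.21, adjusted p = 0.0171), with SC2 at 1.60 RPKM inside the feeder range, and lost its call without feeder replicate 1 (-0.63, 0.0586) or 2 (-0.62, 0.0594). Krt14 at up to 0.44 RPKM and Krt6a at up to 0.03 RPKM in iPS cells were too low to be tested. Of the fibroblast genes, 10 of 12 were lower in iPS cells than in feeders.

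Other genes of squamous epithelium were read beside the members. In SC clones at d23 only 4 genes of any kind were called without SC1 and 1 without SC3. Most SC calls of these lists, here and in the paragraphs on d23 below, were thus lost without either clone. Among the other stratified keratins, 3 of 4 tested fell in SI clones at d23 against d21 and 2 of 3 in SC clones, where 32% and 2.81% of all genes tested were called lower. Krt13, a keratin of oral and esophageal lining, had a mean of 0.005 RPKM at d23, against 2.52 RPKM at d21 in SI clones (log2 -1.79 ± 0.14, limma adjusted p = 8.39e-05). Krt80 fell by 1.35 in SC clones. The median log2 change of this list was -1.13 in SI and -1.35 in SC clones, against -0.12 and -0.07 over all genes tested. Krt6b in both classes and Krt13 in SI clones entered through d21 alone, so these counts and medians were in part fixed in advance. The same limit holds below for Tgm3 and Col17a1 in both classes and for Ehf in SC clones.

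Among the other cornified envelope genes, 2 of 7 tested fell and 1 rose in SI clones, under the 32% and 22.7% of all genes called. In SC clones 3 of 7 fell, where 2.81% of all genes tested were called lower. Tgm3, a transglutaminase that cross-links the envelope, had a mean of 0.05 RPKM at d23, against 7.89 RPKM at d21 in SI clones (log2 -2.71 ± 0.48, limma adjusted p = 0.00187), and it fell by 1.86 in SC clones. Sprr2b, a relative of Sprr1a, had means of 3.02 RPKM at d23 and 24.4 RPKM at d21 in SI clones (log2 -2.66 ± 0.53, adjusted p = 0.0031), the opposite direction to Sprr1a. In SC clones Sprr2b fell by 3.09 and Scel (sciellin) by 1.96. Crct1, of the epidermal differentiation complex, rose with Sprr1a, at a mean of 10.2 RPKM at d23, against 2.04 RPKM at d21 in SI clones (log2 1.82 ± 0.22, adjusted p = 0.000308).

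Junction and anchorage genes moved in both directions in SI clones. There 5 of 9 hemidesmosome and basement membrane genes rose at d23 and 1 fell, where 22.7% of all genes tested were called higher and 32% lower. Col7a1, the anchoring fibril collagen, which fibroblasts also make, had means of 51.1 RPKM at d23 and 4.91 RPKM at d21 (log2 3.18 ± 0.26, limma adjusted p = 8.83e-05). Col17a1, a hemidesmosome collagen, fell by 2.80 in SI clones and by 2.00 in SC clones, where it was the 1 gene of 10 called. Of 9 desmosome genes, 3 fell and 1 rose in SI clones, near the 32% called lower and under the 22.7% called higher over all genes. In SC clones 2 fell, where 2.81% of all genes tested were called lower. Pkp1, a plakophilin of stratified epithelium, fell by 3.07 and by 2.92, and Pkp2, its counterpart in simple epithelium and heart, rose by 1.33 in SI clones.

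Of the squamous transcription factors, 4 of 10 fell and 2 rose in SI clones, near the 32% and 22.7% of all genes called, and 4 of 11 fell in SC clones, where 2.81% of all genes were called lower. Ehf, an epithelial ETS factor, fell by 3.03 in SI clones (limma adjusted p = 0.00245) and by 2.59 in SC clones (0.0105). Grhl3, a grainyhead factor of the epidermal barrier, fell by 1.85 in SC clones (adjusted p = 0.0101). Klf5, expressed in basal epithelium and in embryonic stem cells, rose by 1.71 in SI clones (adjusted p = 0.0028). Of the simple epithelial genes, 4 of 7 rose in SI and 3 of 8 in SC clones, where 22.7% and 0.985% of all genes tested were called higher. Krt18 had means of 552 RPKM at d23 and 17.6 RPKM at d21 in SI clones (log2 4.66 ± 1.07, adjusted p = 0.00618) and rose by 3.25 in SC clones. Epcam, an adhesion molecule of simple epithelium and pluripotent cells named here after its values were seen, had means of 68.3 RPKM at d23 and 108.5 RPKM at d21 in SI clones and did not pass.

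**Figure D4:**
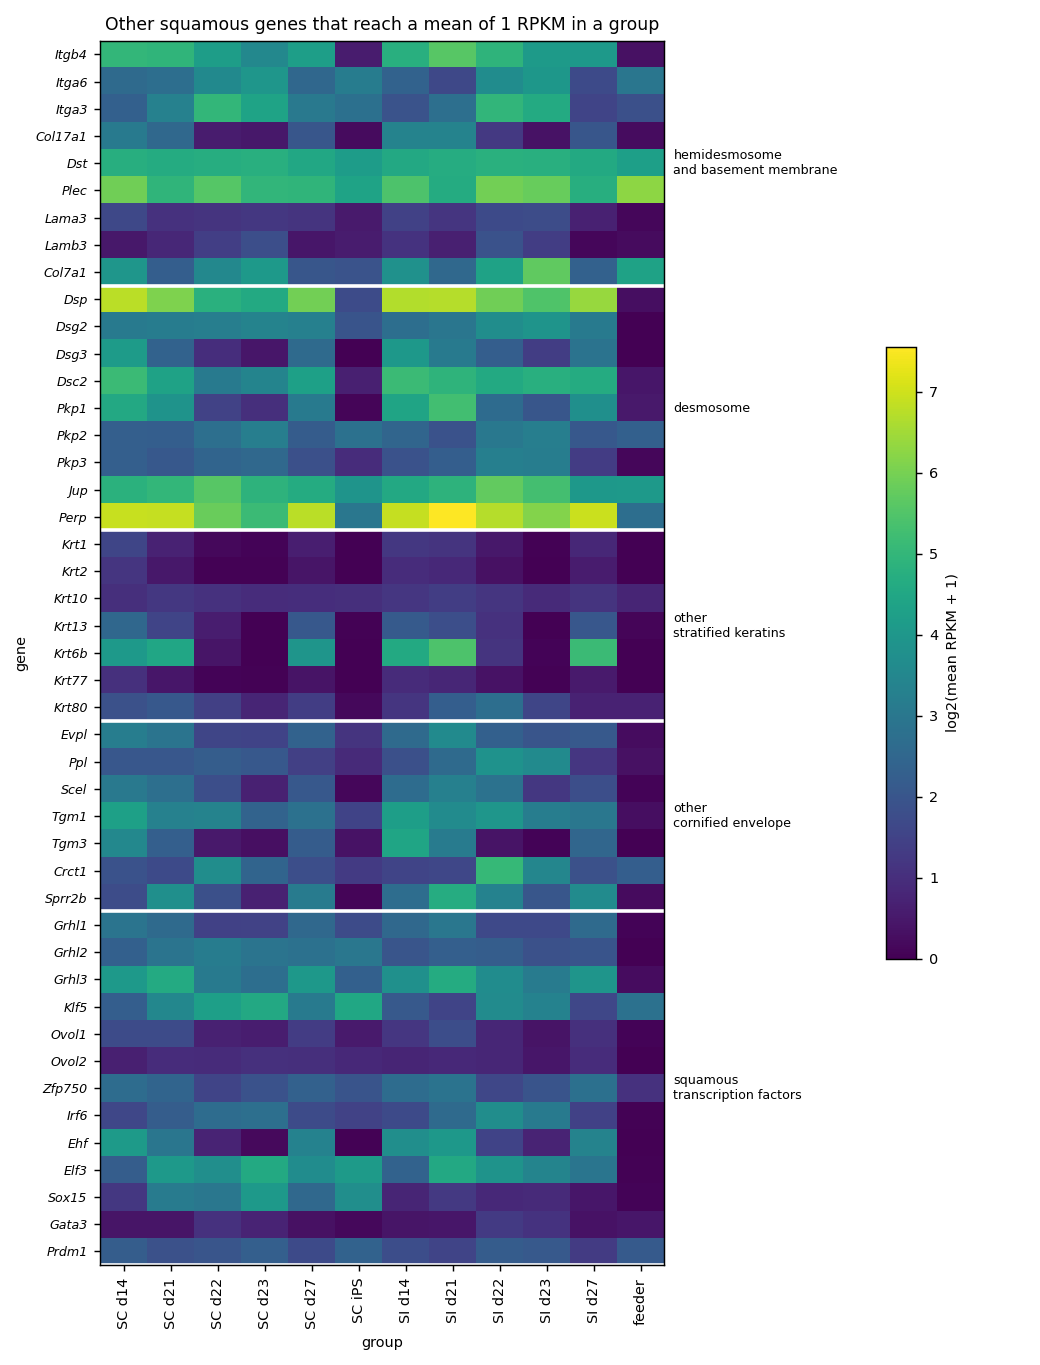
Level as log2(mean RPKM + 1) over the libraries of a group (colour) of 45 other squamous genes (rows, grouped by list) that reach a mean of 1 RPKM in at least 1 of the 12 groups (columns). Krt6b, Krt13, Tgm3 and Ehf are dark at d23 in both classes and in iPS cells and feeders, and Crct1 is brightest at d22 in SI clones.

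In iPS cells against d27, 5 of 8 desmosome genes, 2 of 7 hemidesmosome genes and 1 of 2 other stratified keratins were lower. Over all genes tested, 1.2% were called lower. These counts were in part fixed in advance, since genes under 1 RPKM in every iPS library could enter only through d27. That was so for Pkp1 and Dsc2, with iPS means of 0.085 and 0.598 RPKM. It also held for the other stratified keratins except Krt10, with iPS means of at most 0.265 RPKM. Without SC1 only 5 genes of any kind were called in this comparison, and without SC3 only 4, so most of these calls were lost. Dsp (desmoplakin, the plaque protein of desmosomes) had means of 2.29 RPKM in iPS cells and 61.0 RPKM at d27 (log2 -3.88 ± 0.61, limma adjusted p = 0.033). Perp, a p63 target of desmosomes, fell by 3.47. Itgb4, the hemidesmosome integrin, fell by 3.20 and entered the test through d27 alone. None of 5 other envelope genes and none of 9 squamous transcription factors passed, where 1.62% of all genes tested were called. Klf5 had means of 21.5 RPKM in iPS cells and 7.61 RPKM at d27 (log2 1.56 ± 0.41, adjusted p = 0.0681).

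The genes whose pattern over all 47 libraries was most like each member were named by Pearson's r of log2(RPKM + 1), a description over libraries that share clones and groups. For Krt6a they were Ly6g6c (0.960), Dsg3 (0.945), a desmoglein of basal epidermis, and Hrh1 (0.942). For Krt5 they were Dsg3 (0.939), Krt76 (0.937) and Krt74 (0.935). For Krt14 they were Sfn (0.912), Krt8 (0.886) and Fbp2 (0.845). Krt8 is the keratin partner of Krt18 in simple epithelium. For Krt16 they were Mal (0.940), S100a14 (0.922) and Nppb (0.895), and for Krt17 Lad1 (0.947), S100a14 (0.901) and Esrp2 (0.887). For Sprr1a they were Sgms1 (0.926), Macc1 (0.923) and Aldh1a3 (0.923), and for Ivl they included Coq10b (0.905) and Tfpi2 (0.877).

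Among the members, Krt5 was closest to Krt6a (r = 0.899), Krt14 to Krt16 (0.870) and Krt16 to Krt17 (0.867). Sprr1a was closer to Trp63 (0.822) and Krt14 (0.736) than to Krt6a (0.015), and Krt14 was closer to Sprr1a than to Krt5 (0.519) or Krt6a (0.497).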

How the data were processed

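RPKM values per gene were deposited by the authors in 1 table of all 47 libraries. The unit was read from the values: RPKM times exon length (GENCODE M21, 20750 genes) summed to 0.788 to 0.998 of a full library. Per the labels' protocols, Qiagen kits with DNase digestion gave the RNA, and libraries were Illumina TruSeq. Per the submitters' processing notes, CASAVA 1.8 and build mm9 were used, in roles not stated, and no source used here says whether counting used strand. The labels give the d22 and d23 schedule in different ways, and the days on and off the drug in each sample's own fields were followed.

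From these values log2(RPKM + 1) was computed and each comparison was fitted with limma 3.58.1 (R 4.3.3, empirical Bayes with trend, two-sided) on the libraries of the groups compared, without a clone block. A gene entered with 1 RPKM in a number of libraries no smaller than the smaller group. Values of p were adjusted by Benjamini-Hochberg over all genes tested, and the threshold was 0.05. The scripts were tested on simulated data. Plots were drawn with matplotlib 3.10.9, and tables were made with pandas 2.3.3, numpy 2.4.6 and scipy 1.17.1 under Python 3.11.15. Alternatives tried were no filter, a pseudocount of 0.1, median-ratio scaling, 1 fit over all 12 groups, the clone as a replicate block, and leaving out each clone or feeder library. Pairing within a class comes from the clone names in the titles, and 39 of 40 pairs of libraries of the same clone deviated together from their group means (r over 0.1, range -0.358 to 0.922). Some libraries were still more like another clone number. These include SI1, SI2 (r = -0.358) and SI3 at d21 against d14, so following SI clones from d14 rests on the titles alone. Between classes the same number does not mark a shared clone (12 pairs, r from -0.527 to 0.284).

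The members and the other gene lists were chosen with earlier results of these data known. All 9 members are named. From each other list, up to 3 genes per comparison with the smallest adjusted p past the threshold and a mean of 1 RPKM or more in whichever group was higher could be named, or, where none passed, the one with the highest mean. Sprr2a, Tfap2a and Tfap2c were not analysed here, and Flg, which stands on 5 rows, was left out. Not every gene that these rules name is reported here. The upstream windows are from the RefSeq table, which matched Krt5, Ivl, Sprr1a and Krt14. Depth from read steps covers counting only and is known up to a whole multiple.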

Additional observations from a re-analysis of the deposited data

Results flagged for a closer look

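In 12 of 85 groups of 4 clones tested, a library lay so far from the other 3 that its gap to them passed Dixon's 95% critical value, which chance passes in about 1 group in 20. Of these, 6 were SC2 at d23. It had 1.17 RPKM of Krt5 (the others 0.03 to 0.06), 1.08 RPKM of Krt6a (0 to 0.11), 104.68 RPKM of Krt14 (1.58 to 8.74), 12.66 RPKM of Krt16 (1.29 to 2.7) and 85.65 RPKM of Krt17 (7.69 to 11.73). It also had 0.98 RPKM of Trp63 (0.01 to 0.09). SC2 also stood apart as iPS cells, with 1.6 RPKM of Ivl against 0.4 to 0.6.

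The clone SI3 stood apart at d22 with 1.01 RPKM of Krt6a against 32.12 to 37.59, at d23 with 1.42 RPKM of Krt17 against 81.4 to 91.41, and at d27 with 0.15 RPKM of Sprr1a against 0.79 to 0.88. SC4 at d14 had 53.08 RPKM of Krt14 against 30.71 to 33.85. SC3 at d21 had 0.82 RPKM of Sprr1a against 1.02 to 1.06.

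The change of Ivl between d23 and d21 differed between SC and SI clones by -1.47 on the log2 scale with the clone as a block (limma adjusted p = 0.0327) and did not pass without it (0.123).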

How the results depend on the processing

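Counts of members called kept within 1.5 times of the count reported in 69 alternative fits that kept all libraries and moved further in 13, and single members kept direction and call in 460, gained a call in 23, lost it in 8 and turned direction in 4. The exceptions among counts were these, with the cause not tested. With 1 fit over all 12 groups, 1 member was called for d21 against d14 in SC and 1 in SI clones, 2 for d22 and 2 for d23 in SC clones, 4 between classes at d23, 2 for iPS cells against d23 and 1 for the class difference in change. With the clone as a replicate block, 3 were called for d22 and 3 for d23 in SC clones, 1 for iPS cells against d23 and 1 for the class difference in change. A pseudocount of 0.1 gave 2 for d22 in SC clones, and median-ratio scaling gave 2 between classes at d23. Directions turned with the pseudocount of 0.1 for Krt14 at d23 (-0.012) and Sprr1a at d27 (-0.010) in SC clones and for Sprr1a in SI clones at d14 against feeders (-0.0062, and -0.061 with median-ratio scaling). Leaving out each clone or feeder library gave 5 to 7 members called for SC d14 against feeders, 2 to 5 for SI d14 against feeders, 5 to 6 for d21 against d14 in SC and 0 in SI clones, 0 to 2 (SC) and 1 to 4 (SI) for d22, 0 to 3 (SC) and 3 to 5 (SI) for d23, 0 (SC) and 0 to 4 (SI) for d27, 0, 0 to 5 and 0 to 1 between classes at d21, d23 and d27, 2 to 4, 0 to 2 and 2 to 3 for iPS cells against d27, d23 and feeders, and 0 to 1 for the class difference in change. The members whose direction turned had log2 ranges of -0.94 to 0.71 (Krt14, SC d23), -0.064 to 0.23 (Krt16, SC d27), -0.12 to 0.069 (Sprr1a, SC d27), -0.26 to 0.31 (Krt5) and -0.61 to 0.085 (Krt6a) for the class difference in change, -0.39 to 0.29 (Krt14), -0.59 to 0.17 (Krt16) and -0.21 to 1.12 (Krt17) between classes at d21, -1.21 to 0.0030 (Krt6a) between classes at d27, -0.32 to 0.13 (Ivl) and -0.16 to 0.34 (Sprr1a) for SI d14 against feeders, -0.84 to 0.75 (Krt16), -0.45 to 1.09 (Krt17), -0.51 to 0.36 (Krt5), -1.03 to 0.18 (Krt6a) and -0.61 to 0.12 (Sprr1a) for SI d21 against d14, -0.31 to 0.28 (Krt17, SI d22) and -0.74 to 0.11 (Krt17, SI d23).

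Counts over all genes moved by over 1.5 times in most comparisons. Leaving out single clones took the 454 genes called for SC d23 to between 1 and 559, the 6445 for SI d23 to between 4142 and 8021, the 5021 between classes at d23 to between 2 and 7978, and the 189 for iPS cells against d27 to between 4 and 1492. Median-ratio scaling moved the split of higher and lower calls of SC d14 against feeders to 3654 and 4292 genes from 4824 and 2946, of SI d14 against feeders to 2860 and 3105 from 3767 and 1413, of SC d23 to 163 and 277 from 118 and 336, of iPS cells against d27 to 79 and 124 from 49 and 140, and of iPS cells against d23 to 174 and 186 from 34 and 131. The block changed no call of a member other than those given beside its result. At these depths levels under about 0.03 RPKM rest on single reads for a gene of 1 kb.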
